A study of Mus musculus with 22 samples.

Results

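Cytosolic ribosomal proteins build the 2 subunits of the ribosome: the small subunit reads the mRNA, and the large subunit joins amino acids into protein. Their mRNAs are among the most abundant in growing cells and typically start with a run of pyrimidines, through which mTOR and the RNA-binding protein LARP1 set how strongly they are translated. In the lung, alveolar macrophages live in the airspace and clear surfactant, while Ly6C hi monocytes are recruited from blood after injury, and both must make protein to do this.

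The 86 genes described here, 52 of the large subunit and 34 of the small, are the protein-coding genes of the mouse annotation, 22028 in all, whose symbol starts with Rpl or Rps followed by a digit or is Rplp0, Rplp1, Rplp2 or Rpsa. Symbols of the S6 kinases (Rps6k) and pseudogenes (-ps) were left out. Members were chosen by symbol alone, but the family was picked with earlier results of these data known, so its direction of change is given as a description. The symbol rule also takes in a few genes outside the standard set, among them Rps19bp1, a nucleolar protein that binds RPS19, the retrogene Rps27rt, and the paralogs Rpl3l, Rpl10l and Rpl39l. It leaves out genes such as Fau and Rack1, which encode ribosomal proteins under other names.

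RNA was sequenced from 22 samples of cells sorted from the lungs of C57BL/6 mice carrying SP-C I73T, a mutant surfactant protein C made by alveolar type 2 cells. SigF+CD11b- alveolar macrophages came from 4 control samples, 3 samples at 3 d and 3 samples at 14 d after tamoxifen, and CD11b+Ly6C hi monocytes from 4 control, 4 at 3 d and 4 at 14 d. All groups carry the mutant allele. A single oral dose of tamoxifen removes a neomycin cassette through an estrogen receptor controlled Flp-O recombinase in the Rosa26 locus and raises mutant SP-C, with the mice given it as adults of 8 to 12 weeks in the study's methods. The labels call the controls untreated, whereas the study describes oil treated mutant mice, pooled in its methods with tamoxifen treated mice that lack Flp-O. Which of these each control sample was is not given. The labels do not say whether the samples of a group are separate mice, so the p-values measure only the spread between these samples.

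Library totals were 14437070 to 17074863 counts in macrophage controls, 10692871 to 15410838 at 3 d and 4610720 to 6838893 at 14 d. Monocyte libraries held 15451460 to 28789639 counts. Both 14 d groups differ from all others in sex-linked RNA: Xist had 1 to 6 counts in 14 d monocytes and 8 to 32 in 14 d macrophages, against 552 to 4444 in the other groups. Genes on Y had 433 to 3033 counts at 14 d and 0 to 3 elsewhere. Sex and time therefore cannot be told apart at 14 d. The family has 4 members on chromosome X (Rpl10, Rpl36a, Rpl39 and Rps4x).

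The sorted cells were checked against their markers in CPM, counts scaled to a common library size after normalisation by TMM (trimmed mean of M values). The macrophage marker Siglecf was at 304 ± 51.7 CPM (SD, n = 4) in macrophage controls, 206 ± 104 (n = 3) at 3 d and 112 ± 19.7 (n = 3) at 14 d. Monocytes held a mean of 14.0, 3.21 and 3.60 CPM of it. Itgam, which encodes the CD11b that the macrophage gate should lack, was at 0.730 to 2.66 CPM in control macrophages and 54.9 to 102 CPM at 14 d. In monocytes Itgam averaged 304, 192 and 297 CPM, and Ly6c2 averaged 2866, 2945 and 1498 CPM.

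Ribosomal protein genes took 5.68, 5.34, 5.11 and 5.12% of all counts in the macrophage controls, 5.48, 5.03 and 6.54% at 3 d, and 4.37, 4.27 and 3.63% at 14 d. All 14 d macrophage samples lie below every control and every 3 d sample. In monocytes the share was highest at 14 d. It was 2.94, 3.38, 3.71 and 3.24% in controls, 3.30, 4.11, 4.29 and 3.12% at 3 d, and 4.61, 4.90, 4.06 and 3.30% at 14 d. Of the 14 d monocyte samples, 3 lie above every control and the last, at 3.30%, lies among them. The group means were 5.31 ± 0.268% (SD, n = 4), 5.68 ± 0.776% (n = 3) and 4.09 ± 0.399% (n = 3) in macrophages, and 3.32 ± 0.322%, 3.71 ± 0.581% and 4.22 ± 0.702% (n = 4 each) in monocytes. These shares do not depend on any scaling between samples, and levels in the 2 cell types come from separate count tables, so they are set side by side without a test.

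**Figure D1:**
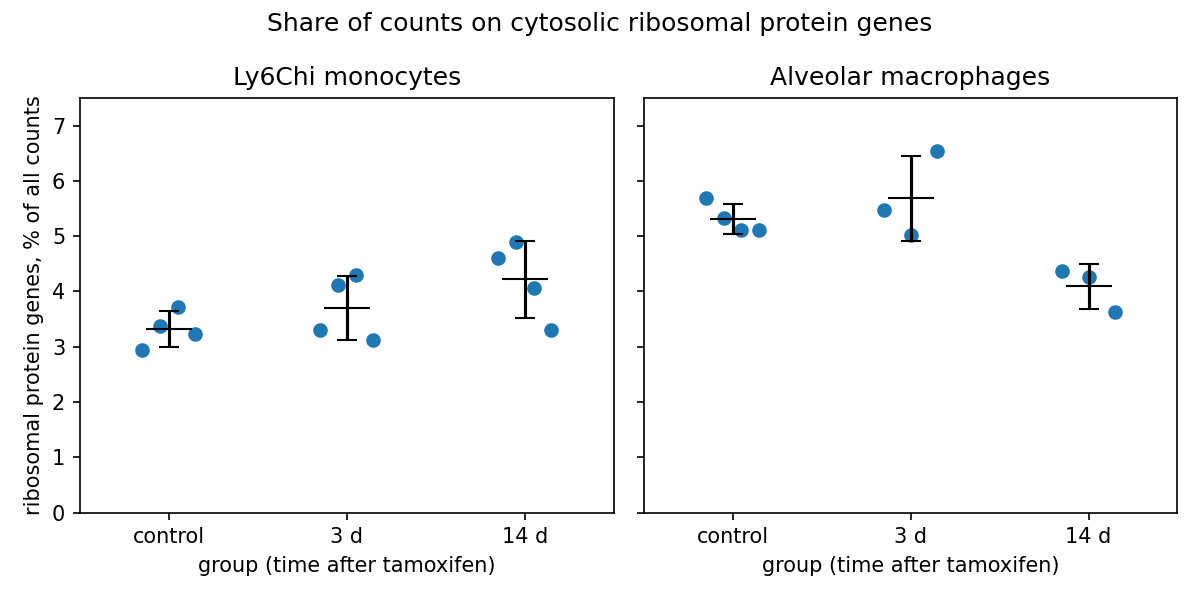
Counts on the 86 ribosomal protein genes as a percent of all counts of a sample (vertical axis, from 0), by cell type and group; points are samples, and the bar and whiskers are the mean and SD (n = 4, or n = 3 for macrophages at 3 d and 14 d). The 3 macrophage samples at 14 d sit between 3.63 and 4.37%, below all other macrophage samples.

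Per exonic length, in TPM (counts per base of exon, scaled to a common total), the family ran from 0.685 to 7484 in macrophages with a median of 765.9, and had a median of 398.5 in monocytes. Rplp1, an acidic protein of the stalk that recruits elongation factors, had the highest level in macrophages, at 8856 ± 473 (SD, n = 4) in controls, 7837 ± 434 (n = 3) at 3 d and 5302 ± 308 (n = 3) at 14 d. Rps15, Rpl36 and Rps3a1 were also among the 5 highest there. In monocytes Rpl36, Rps29 and Rplp1 were among the 5 highest, with Rplp1 at 1472 ± 134 in controls, 1397 ± 267 at 3 d and 2138 ± 441 at 14 d (SD, n = 4 each). When length was taken from the principal transcript instead of all exons, 2 of the top 5 genes were shared in each cell type, so the ranks depend on the transcript assumed. The paralog Rpl10l, a testis gene, was at 0 in most samples and was too low to be tested, which leaves 85 members tested in each fit.

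Alveolar macrophages at 14 d, against control, address how the lung's resident cells differ late after the mutant is raised. Here most ribosomal protein mRNAs were lower: 64 of 85 members fell and 1 rose, where 22.9% of all 20944 genes tested fell and 39.4% rose. Called means an adjusted p-value under 0.05 (edgeR quasi-likelihood test, Benjamini-Hochberg over all genes) and a fold change above 1.5. The median change of the members was -0.79 on the log2 scale under TMM and stayed negative under the 5 other scalings. The number of members with a positive change, however, went from 2 to 21 of 85. Relative to the median of genes above a log2 CPM of 5, the members lay only at -0.23 under TMM. The share of such abundant genes called lower is not given here, so the shares above compare the members with genes of all levels. Both subunits moved alike, with a median of -0.81 in the large subunit (39 of 51 fell) and -0.77 in the small (25 of 34 fell). The 4 genes on X had a median of -0.78, and 3 of them fell. In bulk RNA, fewer cells of a type and less of an RNA per cell cannot be told apart.

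Rpl10, a protein near the peptidyl transferase centre that joins the large subunit late in its assembly, had the most negative change of the abundant members. Its gene (ENSMUSG00000008682) lies on chromosome X at 74270812 to 74273135, plus strand, GRCm38. It was at 1637, 1338, 1584 and 1547 CPM in the controls and at 597, 620.4 and 573 CPM at 14 d. Every 14 d sample was under every control by a wide margin, and the 3 d samples, at 1168, 1308 and 1269 CPM, lay between. Rpl10 fell by 1.36 on the log2 scale (SE 0.13, edgeR adjusted p = 1.85e-06). It also lost ground within the family: its share of all ribosomal protein counts was 2.7, 2.28, 2.77 and 2.71% in controls and 1.69, 1.69 and 2.02% at 14 d.

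Rps6, the small subunit protein phosphorylated by the S6 kinases below mTOR, was at 675, 639.8, 628 and 629 CPM in the controls and 282, 301 and 209.7 CPM at 14 d (ENSMUSG00000028495, chromosome 4, 86854660 to 86857412, minus strand). The groups do not overlap, and the change was -1.28 (SE 0.15, edgeR adjusted p = 8.63e-06). Rps20, a small subunit protein of the head, was at 644, 606, 581 and 603 CPM in controls and at 272, 271 and 216 CPM at 14 d (ENSMUSG00000028234, chromosome 4, 3831334 to 3835665, minus strand). All 3 injured samples were lower, by -1.26 (SE 0.15, edgeR adjusted p = 1.02e-05). Rps12, also of the small subunit, had 862, 832, 772 and 770.4 CPM in controls and 386, 381 and 313 CPM at 14 d (ENSMUSG00000061983, chromosome 10, 23785183 to 23787275, minus strand). It fell by 1.17 (SE 0.15, edgeR adjusted p = 1.42e-05), again with no overlap.

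Rpl37, a large subunit protein, was at 399.8, 373, 345 and 359.9 CPM in controls and 177, 168 and 111 CPM at 14 d (ENSMUSG00000041841, chromosome 15, 5116645 to 5119140, plus strand). Its change was -1.28 (SE 0.16, edgeR adjusted p = 1.47e-05), and all 14 d samples were below all controls. Rpl12, which sits at the base of the stalk, was at 585, 615, 568 and 556 CPM in controls and 304, 304 and 187 CPM at 14 d (ENSMUSG00000038900, chromosome 2, 32961559 to 32965345, plus strand). The groups are again apart, and Rpl12 fell by 1.13 (SE 0.18, edgeR adjusted p = 0.000104). These 6 genes, Rpl10, Rps6, Rps20, Rps12, Rpl37 and Rpl12, were the members called lower under all 6 scalings.

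The stalk genes and Rpsa were lower too under TMM, though none of them was called lower under all 6 scalings. Rplp1 was at 1985, 1939, 1818 and 1891 CPM in controls and 950.5, 957 and 822 CPM at 14 d, a fall to a level that no control approached (-1.07, SE 0.14, edgeR adjusted p = 1.64e-05). Its partner Rplp2 was at 789.9, 754, 763 and 789 CPM in controls and 417, 450.3 and 306 CPM at 14 d (-0.98, SE 0.15, edgeR adjusted p = 5.18e-05). Rplp0, the scaffold that holds both, was at 1913, 1744, 1905 and 1980 CPM in controls and 1030, 1109 and 779.8 CPM at 14 d (-0.95, SE 0.15, edgeR adjusted p = 6.2e-05). In all 3 stalk genes the 14 d samples stood below every control. Rpsa, the small subunit protein also described as a laminin receptor, was at 1333, 1325, 1359 and 1369 CPM in controls and 850.1, 926 and 704 CPM at 14 d (-0.70, SE 0.15, edgeR adjusted p = 0.000646).

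A few members stayed near their controls under TMM. Rpl24, of the large subunit, was at 129.7, 129.6, 123 and 119 CPM in controls and 111, 113 and 110.0 CPM at 14 d, so the groups are close though they do not touch. Its change of -0.17 was not called (SE 0.14, edgeR adjusted p = 0.287) and ran from -0.17 to 0.39 over the scalings. Rpl36 was at 374, 392, 356 and 353 CPM in controls and 329, 338 and 321 CPM at 14 d, a similarly small step (-0.16, SE 0.15, edgeR adjusted p = 0.348). Within the family their shares went up: Rpl24 had 0.208 to 0.221% of ribosomal protein counts in controls and 0.308 to 0.389% at 14 d, and Rpl36 had 0.616 to 0.670% and 0.919 to 1.13%. Rps27a, which encodes ubiquitin fused to a small subunit protein, was at 666, 674, 601 and 582 CPM in controls and 474, 443 and 443 CPM at 14 d, with no overlap. Its change of -0.48 (edgeR adjusted p = 0.0156) is under the 1.5-fold limit. Of exonic bases, 484 of the 1030 in Rpl24 are shared with another gene, and 16 members share over 10% in this way.

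How low the family appears depends on the scaling. TMM places the median of all genes tested at 0.18 and that of genes above a log2 CPM of 5 at -0.56, so the members lie at -0.23 relative to other abundant genes. The median of all genes moved between 0.17 and 0.73 over the scalings, and relative to it the members stayed at -0.99 to -0.96. Members called lower numbered 64 under TMM, 64 when TMM left the members out, 50 with DESeq2, 31 with upper quartile scaling, 17 with library size and 6 when TMM used only genes above a log2 CPM of 5. Members with a positive change numbered 2, 2, 5, 8, 10 and 21 in the same order. Shares of all genes called are given here for TMM only. The counts of called members under other scalings therefore do not show how far the family stands out.

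Rps27rt was the exception. This retrogene of Rps27 has 374 exonic bases, its full span on chromosome 9 (ENSMUSG00000050621, 114982366 to 114982739, minus strand). It was at 8.83, 7.53, 9.5 and 9.36 CPM in controls, 9.1, 9.93 and 19 CPM at 3 d, and 30.8, 22.1 and 54.3 CPM at 14 d. All 14 d samples exceed all others, and the rise was 2.01 on the log2 scale (SE 0.29, edgeR adjusted p = 5.46e-05), called under all 6 scalings. Its parent Rps27 went the other way, from 598, 568, 543 and 514 CPM to 391, 347 and 286 CPM (-0.70, SE 0.19, edgeR adjusted p = 0.00452).

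Ribosomal protein pseudogenes, named with -ps and outside the family, moved with Rps27rt. Their counts equalled 0.563, 0.508, 0.477 and 0.469% of the members' counts in macrophage controls, 0.502, 0.537 and 0.643% at 3 d, and 4.02, 2.66 and 7.92% at 14 d. The sample highest in Rps27rt is also highest in pseudogene counts. Of 125 pseudogenes tested, 83 were called higher and 3 lower at 14 d, with a median change of 2.35, where 39.4% of all genes rose and 22.9% fell. Rps27rt and Rps27 share a run of 38 bases within the first 50 after their starts. Whether the counts on Rps27rt are its own transcripts was not tested.

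Other RNA also differed in macrophages at 14 d, and some of it at 3 d. Genes that are not protein coding took 5.69 to 6.95% of counts at 14 d and 3.68 to 4.30% in controls, while mitochondrially encoded genes took 2.33 to 3.95% at 14 d, 2.67 to 3.30% at 3 d and 1.76 to 2.05% in controls. Neutrophil markers summed to 402 to 1587 CPM at 14 d against 106 to 224 CPM in controls, S100a8 among them at 105 to 663 CPM, with 5 of 6 tested markers higher and 1 lower. Ly6g was at 0 in 1 of the 14 d samples. Eosinophil markers summed to 28.4 to 107 CPM against 0.664 to 1.90 CPM (Prg2 highest at 14 d, 4 of 4 higher), and endothelial and stromal markers to 164 to 346 CPM against 22.6 to 32.5 CPM (Col3a1 highest, 5 of 6 higher). Monocyte markers summed to 484 to 594 CPM against 336 to 404 CPM (Csf1r highest, 4 of 8 higher), while T and NK cell markers summed to 95.8 to 128 CPM against 374 to 422 CPM (Cd2 highest, 1 higher and 2 lower of 7). Alveolar macrophage markers themselves, led by Chil3, summed to 22153 to 28158 CPM against 25653 to 29951 CPM, with 5 of 8 lower. By the study's methods eosinophils are CD11b+, which a SigF+CD11b- sort should exclude. The part of the cell types named here and of RNA quality in the family's change was not tested.

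Macrophages at 3 d, against control, address the early response of the same cells. No member was called by edgeR, where 1.05% of all genes rose and 0.224% fell. At an unadjusted p under 0.05 there were 7 of 85 members and 2944 of all 20944 genes, and DESeq2 called 1, Rpl22l1. The median member change was 0.14, and 69 to 77 of 85 members had a positive change over the 6 scalings. The third 3 d sample stands apart, with 6.54% of its counts on the family and alveolar macrophage markers at 54515 CPM, against 23909 and 29905 CPM in the other 3 d samples. Most of this sum is a single gene, Chil3, at 47630 CPM against 19381 and 22901 CPM in the same order. B cell markers summed to 330 to 993 CPM at 3 d and 113 to 289 CPM in controls (0 of 6 called), and epithelial markers to 668 to 1039 CPM and 242 to 356 CPM (0 higher and 1 lower of 8). Mitochondrially encoded genes took more of the counts in each 3 d sample than in any control. Their part in the family's values was not tested. Without the second 3 d sample 4 members are called (Rps24, Rpl22l1, Rpl35 and Rpl41), and without the third 14 d sample 1 (Rpl22l1).

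Rpl22l1, a paralog that can take the place of Rpl22 in the large subunit, was at 75.9, 77.2, 61.1 and 62.1 CPM in controls and 123, 80.2 and 138 CPM at 3 d. All 3 injured samples are above all controls, the second only slightly (0.72, SE 0.21, edgeR adjusted p = 0.111). Rps24, a small subunit protein needed to process the rRNA precursor, was at 845, 819, 779 and 750.2 CPM in controls and 994, 868 and 1400 CPM at 3 d. Its groups do not overlap either, but the samples at 3 d are far from each other (0.45, edgeR adjusted p = 0.185). Rplp0 had the most negative change among the abundant members, from 1913, 1744, 1905 and 1980 CPM to 1458, 1549 and 1458 CPM. Each 3 d sample was below every control, and the change of -0.34 was not called (edgeR adjusted p = 0.289).

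Macrophages at 14 d, against 3 d, ask what changed between the early and the late time. This comparison shares its 14 d samples with the one against control, so the 2 are not independent. In it 70 members fell and 1, Rps27rt, rose, where 20% of all genes fell and 36.3% rose. The median was -0.94 and stayed negative under all 6 scalings, at -0.46 in the smallest case, with 32 members called lower in all 6. Relative to the median of all genes, which moved from 0.16 to 0.65, the members were at -1.12 to -1.10, and relative to genes above a log2 CPM of 5 under TMM at -0.44. Rpl12 had the most negative change, from 718, 589 and 894 CPM at 3 d to 304, 304 and 187 CPM at 14 d, without overlap (-1.47, SE 0.20, edgeR adjusted p = 5.82e-05). Rpl22l1 went from 123, 80.2 and 138 CPM to 60.4, 54.7 and 31.8 CPM, also without overlap (-1.21, SE 0.23, edgeR adjusted p = 0.000657).

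Monocytes at 3 d, against control, ask how recruited cells differ early. Their ribosomal protein mRNAs had a median change of -0.30 under TMM, which became 0.19 with library size, 0.10 with upper quartile scaling and 0.23 when TMM used genes above a log2 CPM of 5, so no direction can be given. No member rose and 4 fell, where 36.8% of all genes rose and 14.4% fell. The 4 are Rps9, Rps27, Rps27rt and Rpl3l, and none was called under all 6 scalings. At an unadjusted p under 0.05 there were 40 of 85 members and 13799 of all 22353 genes. Members with a positive change numbered 11 of 85 under TMM, 11 without the members, 18 with DESeq2, 55 with upper quartile, 71 with library size and 78 with the abundant genes. Their calls, higher and lower, were 0 and 4, 0 and 4, 1 and 1, 2 and 0, 3 and 0, and 5 and 0 in that order. The 36.8% and 14.4% of all genes are for TMM only.

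The median of all genes was 0.22 under TMM and moved up to 0.74, while the median of genes above a log2 CPM of 5 was -0.55. Relative to all genes the members stayed at -0.53 to -0.51, and relative to abundant genes at 0.25. The 3 d libraries differ in breadth: 40119 to 41134 genes were detected, against 24775 to 30865 in controls, and genes that are not protein coding took 5.35 to 7.39% of counts against 2.46 to 3.27%. Mitochondrially encoded genes took 2.10 to 3.62% at 3 d, 0.969 to 1.41% in controls and 1.23 to 1.79% at 14 d. Long non-coding genes had a median change of 2.37. Their part in the family's values was not tested.

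Rps9, a small subunit protein near the mRNA entry, was at 1163, 1285, 1351 and 1034 CPM in controls and 725, 919, 834 and 692 CPM at 3 d. The groups do not overlap, and under TMM Rps9 fell by 0.61 (SE 0.14, edgeR adjusted p = 0.00362). Over the scalings its change ran from -0.61 to -0.08. Rps27, a zinc-finger protein of the small subunit, was at 758, 1037, 1090 and 775 CPM in controls and 398, 797, 737 and 462 CPM at 3 d, where the first and last samples are low and the second reaches the control range (-0.61, SE 0.22, edgeR adjusted p = 0.0282). Without the first 3 d sample neither is called, at -0.52 for Rps9 and -0.41 for Rps27. Rps27rt was at 8.49, 10.5, 12.1 and 8.5 CPM in controls and 3.74, 7.95, 8.17 and 5.22 CPM at 3 d, just below every control (-0.66, SE 0.27, edgeR adjusted p = 0.0466). The count of 4 becomes 0 without it or without the fourth 3 d sample, 9 without the first control and 7 without the first 14 d sample.

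Rpl22l1 and Rps24 stood at the upper end. Rpl22l1 was at 41.9, 42.2, 40.5 and 44.3 CPM in controls and 58.1, 67.2, 63.2 and 45.1 CPM at 3 d. All injured samples are above all controls, the last by little, and the change of 0.47 is under the 1.5-fold limit (SE 0.14, edgeR adjusted p = 0.0131) and ran from 0.47 to 0.99 over the scalings. Rps24 took 0.707 to 0.905% of ribosomal protein counts in controls and 1.07 to 1.21% at 3 d, a shift within the family that needs no scaling. Rps27 went from 2.20 to 2.58% of the family's counts in controls to 1.48 to 2.31% at 3 d and 1.64 to 1.70% at 14 d.

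Monocytes at 14 d, against control, ask what recruited cells look like late. Most ribosomal protein mRNAs were slightly above control, with a positive change in 79 of 85 members and in 78 to 82 over the 6 scalings. The median was 0.26, where all genes had 0.09 (0.07 to 0.19 over the scalings) and abundant genes -0.08. Of the members, 2 rose and 1 fell, where 3.22% of all genes rose and 5.34% fell, shares the members do not exceed. At an unadjusted p under 0.05 there were 29 of 85 members and 4923 of all 22353 genes. The 3 called genes, Rps26, Rpl12 and Rpl3l, were called under all 6 scalings.

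Rps26, which lies at the mRNA exit channel of the small subunit, was at 209, 247, 261 and 228 CPM in controls, 193, 245, 261 and 178 CPM at 3 d, and 397, 447, 384 and 284 CPM at 14 d (ENSMUSG00000025362, chromosome 10, 128624534 to 128626747, minus strand). All 14 d samples are above all others, and Rps26 rose by 0.68 (SE 0.16, edgeR adjusted p = 0.0173). Its share of ribosomal protein counts went from 0.607 to 0.647% in controls to 0.789 to 0.877% at 14 d. Rpl12 was at 100.5, 125, 150.3 and 126 CPM in controls and 184, 237, 199.7 and 156 CPM at 14 d, above every control, and rose by 0.63 (SE 0.17, edgeR adjusted p = 0.0318). Without the second 14 d sample neither is called, at 0.60 for Rps26 and 0.53 for Rpl12, and 1 member remains called. The count of 3 is 5 without the fourth 14 d sample and 1 without the first control.

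Rpl3l, a paralog of Rpl3 used mainly in striated muscle, was the member that fell (ENSMUSG00000002500, chromosome 17, 24727820 to 24736143, plus strand). It was at 6.63, 7.8, 12.1 and 12.9 CPM in controls, 5.77, 7.19, 5.54 and 4.14 CPM at 3 d, and 4.08, 3.21, 3.25 and 2.74 CPM at 14 d. The 14 d samples are all below the others, while at 3 d a sample overlaps the controls. Rpl3l fell by 1.57 at 14 d (SE 0.27, edgeR adjusted p = 0.00192) and by 0.80 at 3 d (SE 0.27, edgeR adjusted p = 0.0207). Its level is low, with 61 to 317 counts in these samples.

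Other members were high at 14 d without a call. Rps2, another small subunit protein near the mRNA entry, was at 307, 528, 675 and 532 CPM in controls and 759, 949.8, 884 and 648 CPM at 14 d (0.67, SE 0.27, edgeR adjusted p = 0.149). The lowest 14 d sample lies within the control range. Rps12 was at 178, 205, 249 and 211 CPM in controls and 339, 421, 306 and 216 CPM at 14 d, where 3 samples are above all controls and the last is not (0.60, SE 0.20, edgeR adjusted p = 0.0875). T and NK cell markers summed to 358 to 1531 CPM in control monocytes, 23.5 to 284 at 3 d and 30.0 to 52.5 at 14 d (Gzma highest, 6 of 8 lower at 3 d and 5 at 14 d). B cell markers summed to 405 to 690, 249 to 390 and 211 to 348 CPM (Ighm highest, 1 higher and 5 lower of 6 at 3 d, 5 lower at 14 d). Chil3, of the alveolar macrophage list, averaged 10294, 7133 and 18638 CPM, and Itgax 67.5, 31.3 and 128 CPM. The other genes of that list, Marco, Fabp4, Pparg, Siglecf, Car4 and Krt79, had lower means at 14 d than in controls. Neutrophil markers summed to 561 to 847 CPM in controls and 1001 to 1816 at 14 d (1 higher of 8). The monocytes' own markers summed to 12357 to 19401 CPM in controls and 8466 to 11594 at 14 d (4 lower of 8). By the study's methods, lymphocytes (CD3+), neutrophils (Ly6G+), eosinophils and the resident macrophages were gated out before monocytes were sorted. The part of these cells in the family's values was not tested.

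Monocytes at 14 d, against 3 d, cover the step between the times and share samples with both comparisons above. Under TMM 37 members rose and 1, Rpl3l, fell, where 12% of all genes rose and 34.5% fell. With DESeq2 21 rose, and with library size, upper quartile or the abundant genes none did, while 82 of 85 members had a positive change under TMM, 82 when TMM left the members out, 78 with DESeq2, 64 with library size, 64 with upper quartile and 60 with the abundant genes. Under TMM 68 of 85 members and 13226 of all 22353 genes had an unadjusted p under 0.05. The median was 0.53 under TMM and 0.08 at the least, and relative to all genes, whose median moved from -0.72 to -0.26, it stayed at 0.79 to 0.82. Relative to genes above a log2 CPM of 5 under TMM it was 0.07. Without the first 3 d sample 24 members are called. The 12% and 34.5% of all genes are for TMM only.

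Rps3a1, a small subunit protein, was at 362, 409, 423 and 411 CPM at 3 d and 743, 763, 776 and 637 CPM at 14 d (0.86, SE 0.11, edgeR adjusted p = 0.000407). Every late sample is above every early one. Rps4x, encoded on X, was at 293, 329, 391 and 283 CPM at 3 d and 633, 703, 628 and 487 CPM at 14 d (0.92, SE 0.14, edgeR adjusted p = 0.000845), again without overlap. Rpl10 went from 574, 667, 728 and 631 CPM to 1234, 1261, 1204 and 1004 CPM (0.86, edgeR adjusted p = 0.000574).

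**Figure D2:**
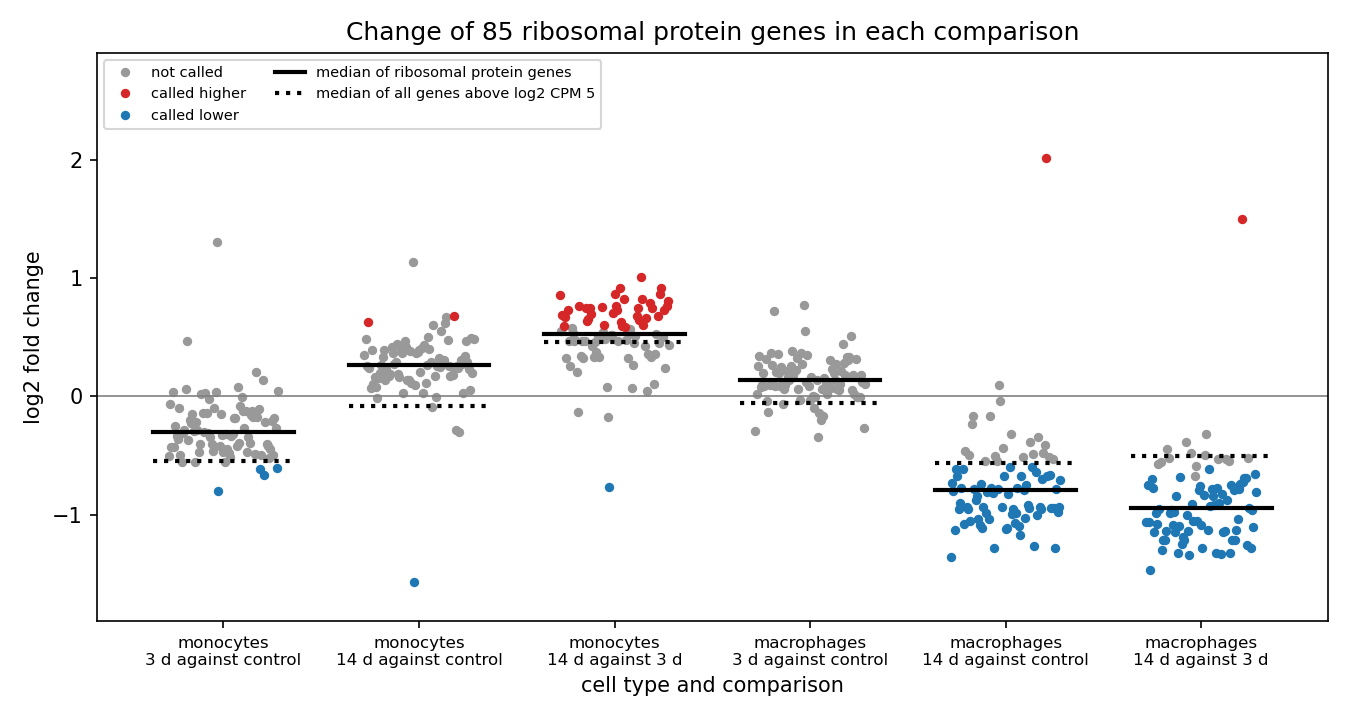
Log2 fold change of the 85 ribosomal protein genes tested (vertical axis) in each cell type and comparison under TMM; points are genes, coloured by call, and lines give the median of these genes and of all genes above a log2 CPM of 5. The median is lowest in macrophages at 14 d against 3 d, at -0.94, and the monocyte median at 3 d, -0.30 here, is above 0 under 3 other scalings.

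Whether the 2 cell types changed differently was tested as an interaction in 1 fit of all 22 samples over genes present in both tables, taking the monocyte change minus the macrophage change. This fit scales all samples together, so a difference need not equal the gap between the separately fitted changes. At 14 d the difference was positive for nearly the whole family: 80 of 85 members were called higher and 2 lower, where 19.9% of 26692 genes were higher and 16.9% lower. The median difference was 1.41 and stayed positive under all scalings, at 0.64 in the smallest case, with 79 to 83 members positive and 44 called higher in all 6. The median of all genes moved from -1.27 to -0.48, and the members lay 1.88 to 1.90 above it, and 0.56 above genes with a log2 CPM over 5 under TMM. Large and small subunit genes had medians of 1.41 and 1.40.

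Rps12, Rpl12, Rps20 and Rpl10 had the highest differences at 14 d. For Rps12 the difference was 2.11 (SE 0.26, edgeR adjusted p = 3.51e-06). Rpl12 reached 2.11 (SE 0.26, edgeR adjusted p = 2.72e-06), and Rpl12 is the only one of the 4 called in each cell type on its own, higher in monocytes and lower in macrophages. Rps20 stood at 188, 229.8, 236 and 206 CPM in control monocytes and 318, 357, 299 and 222 CPM at 14 d, where the last sample lies within the controls (difference 2.09, SE 0.24, edgeR adjusted p = 1.28e-06). Rpl10 was at 861, 915, 1009 and 904 CPM in control monocytes and at 1234, 1261, 1204 and 1004 CPM at 14 d, the last just under the highest control (difference 2.05, SE 0.18, edgeR adjusted p = 3.62e-08). Rps26 was also called in opposite directions, with a difference of 1.98 (SE 0.23, edgeR adjusted p = 1.89e-06).

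The 2 members with a negative difference at 14 d were Rps27rt (-1.98, SE 0.42, edgeR adjusted p = 0.00094), which rose in macrophages, and Rpl3l (-1.19, SE 0.40, edgeR adjusted p = 0.0215), which fell in monocytes. Without the first 14 d macrophage sample Rpl3l is no longer called, at -0.88. Not called were Rpl36 (0.53, edgeR adjusted p = 0.111), Rps27 (0.76, edgeR adjusted p = 0.0519) and Rpl39l (1.36, edgeR adjusted p = 0.269), the last at under 3 CPM in every sample.

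At 3 d the sign of the family's difference depends on the scaling, with 10 of 85 members positive under TMM, 10 without the members, 8 with DESeq2, 17 with upper quartile, 59 with library size and 60 with the abundant genes. Relative to the median of all genes, which moved from 0.61 to 0.93, the members stayed at -0.88 to -0.83, but relative to genes above a log2 CPM of 5 under TMM they were at 0.07. No member was called higher and 4 were called lower, where 15.2% of genes were higher and 3.51% lower. The lower calls are near the share of all genes and the higher calls under it, so the family does not stand out by its calls. The 4 are Rpl3l (-1.18, SE 0.39, edgeR adjusted p = 0.0362), Rps3a1 (-0.66, SE 0.19, edgeR adjusted p = 0.0226), Rpl27a (-0.63, SE 0.22, edgeR adjusted p = 0.0494) and Rps27a (-0.63, SE 0.21, edgeR adjusted p = 0.0421). Rps3a1 was at 579, 599.7, 518 and 602 CPM in control monocytes and 362, 409, 423 and 411 CPM at 3 d, below every control. In macrophages it was at 1082, 1020, 988 and 964 CPM in controls and 1107, 1109 and 1558 CPM at 3 d, above every control. None of the 4 was called under all scalings. The count is 7 without the fourth 14 d monocyte sample, and 0 without the third 3 d macrophage sample or with a block for replicate number. It is 2 without the first or the third 3 d monocyte sample, the second monocyte control or the third macrophage control. It is 1 without the fourth 3 d monocyte sample, the third or the fourth monocyte control, the first 3 d macrophage sample or the first, the second or the fourth macrophage control. Rpl3l is no longer called without the fourth monocyte control (-1.01), nor are Rpl27a (-0.56) and Rps27a (-0.56) without the first 3 d monocyte sample.

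Across the 85 members, the change at 14 d in monocytes and in macrophages had a Pearson r of -0.27 (Spearman rho -0.20), and at 3 d 0.44 (rho 0.29). Genes are not independent replicates and the 2 cell types share no control samples, so these are descriptions. Rpl36 had a change of -0.16 in macrophages and 0.02 in monocytes.

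**Figure D3:**
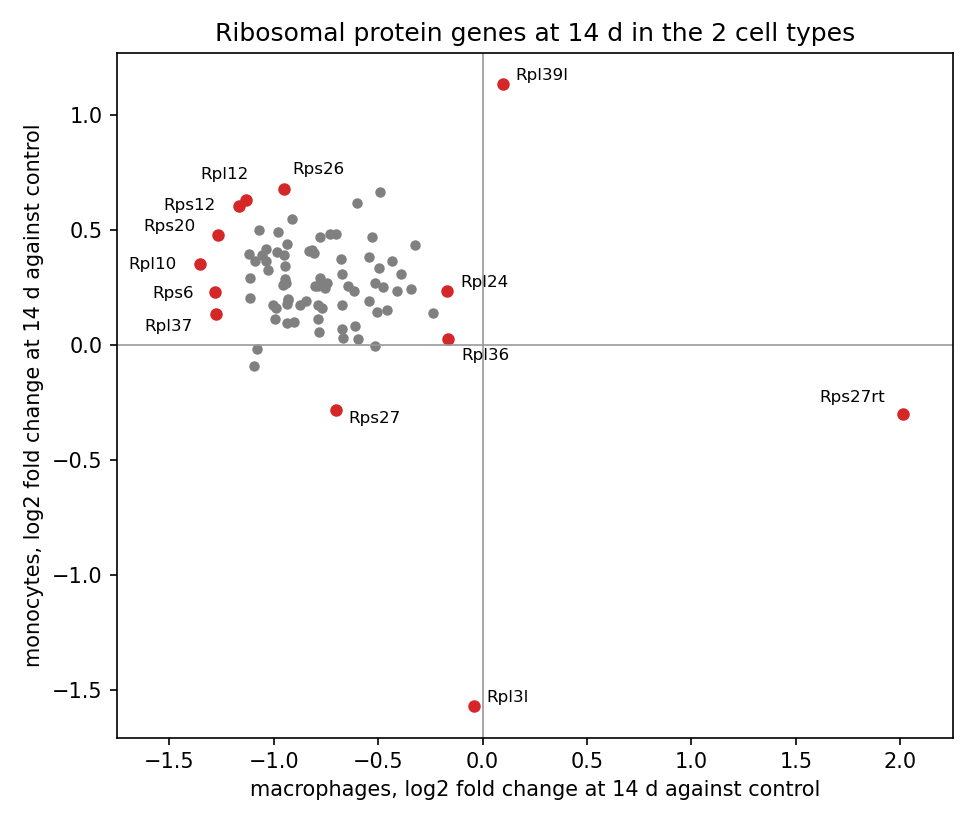
Log2 fold change at 14 d against control in macrophages (horizontal axis) and monocytes (vertical axis) for the 85 ribosomal protein genes tested under TMM; each point is a gene and genes described in the text are named. Most points lie to the lower side in macrophages and slightly above 0 in monocytes, with 2 to 21 members positive in macrophages and 78 to 82 in monocytes over the scalings, and Rps27rt and Rpl3l lie apart.

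Some ribosomal proteins have a paralog that can replace them, and the ratio of paralog to parent counts within a library needs no scaling. Of 30 such tests, the lowest p-values reached the limit of the design, which is 0.0286 for 4 against 4, 0.0571 for 4 against 3 and 0.1 for 3 against 3 samples (exact permutation test, two-sided), and the smallest adjusted p was 0.143. With these limits no ratio could reach an adjusted p under 0.05, even if every group had stood apart. The test therefore cannot decide whether a ratio changed, and the values are given as they stand.

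Rps27l, a p53-induced paralog of Rps27, had 25.4, 23.1, 21.2 and 26.0% of the counts of Rps27 in control monocytes, 50.5, 34.8, 36.1 and 44.4% at 3 d, and 29.3, 34.3, 36.4 and 35.9% at 14 d. All samples after tamoxifen are above all controls, by 0.78 on the log2 scale at 3 d and 0.50 at 14 d (exact permutation p = 0.0286 for each, adjusted 0.143). In macrophages the ratio was 20.8 to 26.2% in controls and 24.9 to 32.2% at 14 d, which overlap.

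Rpl22l1 had 38.0, 32.6, 30.0 and 37.5% of the counts of Rpl22 in control monocytes and 52.8, 42.7, 42.3 and 45.8% at 3 d, above every control by 0.41 on the log2 scale (exact permutation p = 0.0286, adjusted 0.143). By 14 d it was 33.9, 32.2, 37.0 and 42.1%, where 3 samples are within the control range and the last is above it. In macrophages it was 20.3, 20.6, 16.6 and 18.2% in controls, 29.1, 21.5 and 26.7% at 3 d, and 31.1, 24.6 and 21.4% at 14 d. Both later groups lie above all controls there (0.44 and 0.43, exact permutation p = 0.0571 for each, adjusted 0.171).

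Rpl3l had 1.07, 1.31, 2.03 and 2.18% of the counts of Rpl3 in control monocytes and 0.530, 0.438, 0.432 and 0.425% at 14 d, below every control (-1.79, exact permutation p = 0.0286, adjusted 0.143). In macrophages it moved to the other side, from 0.901, 1.20, 1.18 and 0.754% to 2.06, 1.3 and 1.53% at 14 d (0.69, exact permutation p = 0.0571). Rpl7l1, a relative of Rpl7, had 9.86, 12.9, 11 and 11.7% of the counts of Rpl7 in control macrophages and 16.6, 16.4 and 15.3% at 14 d, above every control (0.51, exact permutation p = 0.0571). The Rpl36al to Rpl36a ratio overlapped in all 6 comparisons. Rpl39l and Rpl10l were too low for a ratio, and Rps4l had no protein-coding gene in the annotation.

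Since members moved together, the start of their genes was read for a terminal pyrimidine run, searched on the gene's strand only as a C followed by at least 4 more C or T. RefSeq promoters on GRCm38.p6 matched 66 members. The annotated start itself was such a C in 14 of 66 members (21.2%) and in 3.01% of 27025 genes, whether or not the run also reaches upstream. Such a C lay within 5 bases of the start in 30 members (45.5%) and in 21.2% of genes. In macrophages at 14 d, members with it at the start had a median change of -0.92 (n = 14) and those without -0.78 (n = 51). With it within 5 bases the medians were -0.84 (n = 30) and -0.78 (n = 35). In monocytes at 14 d, against control, the order was the reverse, at 0.31 with it at the start and 0.26 without, but with it within 5 bases both medians were 0.26. No such split was tested.

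Windows from 10 bases before the start to 20 from it are shown for the members with a promoter entry that were called against control under all scalings at 14 d in a cell type, and for Rps27, with the longest run of at least 5 pyrimidines that begins with C in capitals and any other left in small letters. Rps6 lies at chr4:86857348-86857377 (minus strand), Rpl12 at chr2:32961702-32961731 (plus), Rps12 at chr10:23787190-23787219 (minus), Rps26 at chr10:128626487-128626516 (minus), Rpl10 at chrX:74270806-74270835 (plus) and Rpl37 at chr15:5116603-5116632 (plus). Rpl3l has 2 entries, at chr17:24727816-24727845 and chr17:24732675-24732704 (both plus), shown in this order. Rps27 is at chr3:90213629-90213658 (minus) and Rps27rt at chr9:114982720-114982749 (minus).
Rps6: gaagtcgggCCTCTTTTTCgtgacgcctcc
Rpl12: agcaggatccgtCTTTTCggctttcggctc
Rps12: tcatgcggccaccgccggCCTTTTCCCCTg
Rps26: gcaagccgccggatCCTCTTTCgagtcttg
Rpl10: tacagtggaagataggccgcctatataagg
Rpl37: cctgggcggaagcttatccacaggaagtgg
Rpl3l: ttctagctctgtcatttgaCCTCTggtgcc
Rpl3l: caacagctacagtgccccaaatgtcctgaa
Rps27: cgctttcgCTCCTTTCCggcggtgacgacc
Rps27rt: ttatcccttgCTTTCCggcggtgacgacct
Rps6, Rps27 and Rps27rt hold this longest run across or at the start, Rpl12, Rps12, Rps26 and the first entry of Rpl3l have it begin at base 3 to 10 counted from the start, and Rpl10, Rpl37 and the second entry of Rpl3l hold none. A match is a description of these letters only.

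Genes that work beside the ribosomal proteins were read from lists of the pathway. In macrophages at 14 d, ribosomal proteins with other names fell: Fau went from 1027, 987, 939.7 and 945 CPM to 555, 602 and 369 CPM (-0.94, SE 0.17, edgeR adjusted p = 0.000197), and Rack1 from 1379.9, 1325, 1353 and 1366 CPM to 862, 842 and 752 CPM (-0.73, SE 0.13, edgeR adjusted p = 0.000243). In monocytes at 14 d Rack1 had a change of 0.32 (edgeR adjusted p = 0.331) and Fau of -0.01 (edgeR adjusted p = 0.987).

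Translation factors had 8 of 34 genes lower and 3 higher in macrophages at 14 d, with a median of -0.38, where 22.9% of all genes were lower and 39.4% higher. Eef2, which moves the ribosome along the mRNA, was at 2982, 2527, 3315 and 3334 CPM in controls and 1396, 1603 and 1234 CPM at 14 d, with no overlap (-1.11, SE 0.15, edgeR adjusted p = 2.96e-05). Tpt1, whose mRNA is controlled like those of ribosomal proteins, was at 2069.9, 2012, 2007 and 1975 CPM in controls and 1014, 895 and 895 CPM at 14 d (-1.11, SE 0.13, edgeR adjusted p = 6.4e-06). In monocytes at 3 d 11 of 34 were lower, against 14.4% of all genes, led by Eif4b, a helper of the helicase Eif4a, from 185, 186, 171 and 164 CPM to 93.5, 88.9, 77.4 and 114 CPM (-0.92, SE 0.14, edgeR adjusted p = 0.000488). At 14 d 2 of 34 were lower in monocytes, against 5.34% of all genes.

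Ribosome assembly genes had 14 of 43 lower and 2 higher in macrophages at 14 d, to be read beside the same 22.9% and 39.4%. Ddx21, a nucleolar helicase, was at 145, 166, 140.3 and 152 CPM in controls and 86.3, 83.2 and 67.5 CPM at 14 d (-0.93, SE 0.13, edgeR adjusted p = 3.26e-05). In monocytes 11 of 43 were lower at 3 d, among them Ubtf, the factor that opens rRNA genes (63.6, 85.5, 103 and 89.7 CPM in controls, 40.3, 46.4, 48.2 and 46.9 CPM at 3 d; -0.91, SE 0.18, edgeR adjusted p = 0.0018), and at 14 d 2 were higher and none lower. Of all genes in monocytes, 14.4% were lower and 36.8% higher at 3 d, and 5.34% and 3.22% at 14 d. Of 23 regulators of translation, 9 were lower and 2 higher in macrophages at 14 d, and in monocytes 5 were lower and 1 higher at 3 d and 2 lower at 14 d, against the same shares of all genes. Eif2ak2, the kinase PKR that halts initiation on sensing double-stranded RNA, was at 76.7, 42.3, 37.2 and 54.2 CPM in control monocytes and 19.2, 17.3, 18.4 and 22.7 CPM at 14 d (-1.44, SE 0.23, edgeR adjusted p = 0.00097). It was at 30.4, 32.7, 30.7 and 25.4 CPM in control macrophages and 15.4, 16 and 14.2 CPM at 14 d (-0.97, SE 0.17, edgeR adjusted p = 0.000178). In macrophages at 3 d edgeR called 0 genes of these 3 lists, with 11 translation factors, 8 assembly genes and 3 regulators at an unadjusted p under 0.05, beside 2944 of all 20944 genes. All these values are under TMM, and how they stand under other scalings was not tested.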

How the data were processed

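The deposited values are raw counts of reads on each gene, not normalised, in 1 table for monocytes (55421 genes) and 1 for macrophages (31134 genes, 31116 in both). The submitters' notes name STAR 2.7.2c and 2.7.3a, featureCounts 1.6.3, DESeq2 1.26.0 and 1.28.1 and GRCm38, without saying which version made which table or whether strand was used. Libraries were paired-end reads of oligo(dT)-selected RNA. Names, positions and lengths came from GENCODE vM21, which left 181 monocyte and 75 macrophage genes unmatched. The 3 groups of a cell type went into a single edgeR 4.0.16 model (limma 3.58.1, R 4.3.3): filterByExpr, TMM, robust quasi-likelihood F test, two-sided, Benjamini-Hochberg over all genes tested. The interaction used all 22 samples. A change was called at an adjusted p under 0.05 and a fold above 1.5. The SE of an edgeR change was derived as the absolute log2 fold change divided by the square root of its F statistic. CPM uses TMM factors. By library totals alone, without these factors, 3 counts equal 0.104 to 0.194 CPM among monocyte libraries and 0.176 to 0.651 CPM among macrophage libraries. This limit reflects counting error only.

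Alternatives were DESeq2 1.42.0, library size, upper quartile, TMM without the members or from genes above a log2 CPM of 5, other filters, calls on adjusted p alone or with glmTreat, a model of just the pair of groups, a block for replicate number, and leaving out each sample. Paralog ratios added 0.5 to both counts and used an exact permutation test, two-sided. Named members are, per cell type and time against control, the 5 highest and 5 lowest changes among those above a mean log2 CPM of 3, the 5 highest levels per length, the paralog pairs, the stalk genes with Rpsa and Rps27a, members called against the majority, and up to 5 called in the interaction per time. From each pathway list at most 4 called genes per comparison were eligible. Rps26 outside this rule in the interaction, and Rps4x and Rpl10 in the monocyte step from 3 d to 14 d, were singled out after their values were seen. The members and lists were chosen with earlier results of these data known. The calls were tested on simulated data for 3 d against control. There the interaction found 11% of genes changed 2-fold, against 69.1% in the monocyte fit and 58.7% in the macrophage fit. Marker lists covered monocytes, alveolar macrophages, neutrophils, eosinophils, T and NK cells, B cells, epithelial, endothelial and stromal, and erythroid cells. Protein sequences and the study's other measurements were not used here. Single values of a few genes are not reported here.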

Additional observations from a re-analysis of the deposited data

Results flagged for a closer look

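In groups of 4 samples, the gap of the highest or lowest sample to its nearest neighbour was compared with the range of the group, and ratios above Dixon's 95% critical value are given. For the CPM of 42 named members, 6 of 168 groups (3.57%) had such a ratio, where chance gives about 1 in 20. Rpl10l reached a ratio of 1 in monocytes at 14 d, in monocytes at 3 d and in macrophage controls, since 1 sample of each had counts and the others none. Rpl23a reached 0.9059 in monocytes at 14 d, where the samples were at 242, 242, 247 and 196 CPM. Rpl24 reached 0.8696 in monocyte controls, at 119.7, 129.7, 131 and 130.3 CPM. Rpl7 reached 0.8442 in macrophage controls, at 1081, 961, 970.2 and 949.7 CPM. The number of genes detected reached 0.9064 in monocytes at 3 d, at 41134, 40119, 41102 and 41039 genes.

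The change against control differed between cell types, by the edgeR interaction, for 4 members at 3 d and 82 at 14 d. Of all genes tested, 15.2% were higher and 3.51% lower at 3 d, and 19.9% and 16.9% at 14 d. The 4 members at 3 d were all lower, near the share of all genes that were. They were Rpl3l (-1.18), Rps3a1 (-0.6584), Rpl27a (-0.632) and Rps27a (-0.6274), in log2 units of monocyte minus macrophage change. At 14 d Rps12 (2.113), Rpl12 (2.109), Rps20 (2.086) and Rpl10 (2.05) had the highest differences, and Rps27rt (-1.982) and Rpl3l (-1.191) the negative ones.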

How the results depend on the processing

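Scaling sets how many ribosomal protein genes pass and, in monocytes at 3 d and in the 3 d difference, the sign of the median. The cause was not tested. Shares of all genes called are given above for the main fit only, so counts under other settings have none beside them. With TMM without the members, a dispersion estimate that is not robust and settings not named for a comparison, total counts, higher and lower together, were within 1.5 times and medians within their spread. Monocytes at 3 d had 4 called members, all lower: 2 with DESeq2 (1 higher, 1 lower), 3 with library size (all higher), 5 with abundant genes (all higher), 2 with upper quartile (all higher), 36 with no filter, 2 with a mean log2 CPM above 1, 32 on adjusted p alone, 0 with glmTreat, 0 with only the groups compared, and 0 to 9 leaving out a sample. Their median of -0.30 was 0.19 with library size, 0.10 with upper quartile, 0.23 with abundant genes, -0.55 with no filter and 0.083 with a mean log2 CPM above 1. Monocytes at 14 d had 3: 6 with library size, 1 with glmTreat, 1 to 5 leaving out a sample. Monocytes at 14 d against 3 d had 38: 22 with DESeq2, 1 with library size, 1 with upper quartile, 2 with abundant genes, 64 with no filter, 1 with a mean log2 CPM above 1, 61 on adjusted p alone, 5 with glmTreat, and 24 to 43 leaving out a sample. Their median of 0.53 was 0.16 with library size, 0.14 with upper quartile, 0.079 with abundant genes and 0.16 with a mean log2 CPM above 1.

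Macrophages at 3 d had 0: 1 with DESeq2 and 0 to 4 leaving out a sample. At 14 d they had 65: 18 with library size, 32 with upper quartile, 7 with abundant genes, 24 with a mean log2 CPM above 1, 40 with glmTreat, and 61 to 77 leaving out a sample. Their median of -0.79 was -0.36 with library size, -0.44 with upper quartile, -0.25 with abundant genes and -0.43 with a mean log2 CPM above 1. At 14 d against 3 d they had 71: 36 with library size, 33 with abundant genes and 46 with a mean log2 CPM above 1. The median of -0.94 was -0.51 with library size, -0.65 with upper quartile, -0.46 with abundant genes, -1.16 with no filter, -0.61 with a mean log2 CPM above 1, and -1.29 to -0.87 leaving out a sample. The share of counts was 4.51% in macrophages at 14 d and 5.65% in controls when only nuclear protein-coding genes were the total.

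The 3 d difference had 4: 0 with library size, 1 with upper quartile, 0 with abundant genes, 0 with a mean log2 CPM above 1, 0 with glmTreat and 0 to 7 leaving out a sample. Its median of -0.24 was 0.073 with library size and 0.091 with abundant genes. The 14 d difference had 82: 53 with upper quartile, 46 with abundant genes and 80 to 83 leaving out a sample. Its median of 1.41 was 1.01 with DESeq2, 0.75 with library size, 0.75 with upper quartile, 0.64 with abundant genes and 0.83 with a mean log2 CPM above 1. With a block for replicate number the counts were 4, 3 and 38 in monocytes, 0, 65 and 71 in macrophages, and 0 and 82 in the differences. The labels tie samples of the same number by nothing beyond that number. For single genes, 229 values kept their direction and call and 43 kept only the direction, and leaving out a sample kept 94 and lost the call in 8. Depth limits Rpl10l, Rpl39l and Rpl3l, which have few counts.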

Other observations

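Mitochondrial ribosomal proteins, which build the separate ribosome of that organelle, had 45 of 78 genes lower and 0 higher in macrophages at 14 d, with a median change of -0.67 under TMM, where 22.9% of all genes were lower and 39.4% higher. Their share of all counts, which needs no scaling, differed less: 0.267, 0.279 and 0.221% at 14 d and 0.280 to 0.304% in controls. How many are called under other scalings is not given here. Mrps6 was at 33.6, 36.3, 35.4 and 39 CPM in controls, 37.3, 30.4 and 35.3 CPM at 3 d, and 7.35, 8.57 and 7.61 CPM at 14 d. Every 14 d sample is far below every other (-2.20, SE 0.16, edgeR adjusted p = 2.84e-07). Mrpl36 was at 43.6, 46.9, 49.4 and 49.8 CPM in controls and 19.6, 21.2 and 11.5 CPM at 14 d (-1.44, SE 0.18, edgeR adjusted p = 1.3e-05). In monocytes at 14 d 4 of 78 were higher, against 3.22% of all genes, among them Mrpl52, at 51.8, 60.7, 65.3 and 56 CPM in controls and 115, 128, 142 and 93.8 CPM at 14 d, again without overlap (1.03, SE 0.16, edgeR adjusted p = 0.000827). The difference between cell types at 14 d was called higher for 71 of 78 and lower for 0, where 19.9% of all genes were higher and 16.9% lower.

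Mycn, a relative of Myc, which drives transcription of ribosome genes, was at 0.207, 0.592, 0.121 and 0.0407 CPM in control monocytes and 4.23, 3.1, 4.46 and 1.88 CPM at 3 d (3.86, SE 0.83, edgeR adjusted p = 0.00245). By 14 d it was at 0.417, 0.345, 0.0532 and 0 CPM, no higher than in controls. In macrophages it was under 0.3 CPM in all control and 3 d samples and at 1.44, 1.3 and 3.38 CPM at 14 d (4.15, SE 0.84, edgeR adjusted p = 0.000544). Mycn is low in every sample. Of all genes, 36.8% were higher in monocytes at 3 d and 39.4% in macrophages at 14 d. Mxd1, which opposes Myc at its sites, was at 41.4, 39.8, 36.8 and 57.2 CPM in control macrophages and 134, 105 and 74 CPM at 14 d (1.25, SE 0.22, edgeR adjusted p = 0.000257).

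The remaining marker lists gave these sums. In macrophages, in the order control, 3 d and 14 d, B cell markers were at 113 to 289, 330 to 993 and 201 to 338 CPM (Ighm highest), epithelial markers at 242 to 356, 668 to 1039 and 168 to 252 CPM (Scgb1a1 highest at 3 d, Cdh1 otherwise), and erythroid genes at 43.0 to 787, 6.36 to 125 and 40.2 to 181 CPM. At 14 d 2 of 8 epithelial markers were higher and 4 lower. In monocytes, monocyte markers were at 12357 to 19401, 9930 to 12187 and 8466 to 11594 CPM (Ly6c2 among them), alveolar macrophage markers at 7375 to 14990, 4286 to 8924 and 15558 to 20849 CPM (Chil3 highest), and neutrophil markers at 561 to 847, 461 to 1584 and 1001 to 1816 CPM (Csf3r, S100a8 and Mmp8 highest in turn). Chil3 made up nearly all of the alveolar macrophage sum in monocytes, with 18456 of 18758 CPM in the second 14 d sample. Apart from Chil3 and Itgax, the genes of that list had lower means at 14 d than in controls. Epithelial markers were there at 80.6 to 523, 90.5 to 114 and 96.3 to 273 CPM, endothelial and stromal markers at 13.9 to 27.4, 26.8 to 36.3 and 14.6 to 29.3 CPM, erythroid genes at 213 to 4336, 11.9 to 375 and 3.55 to 96.6 CPM, and eosinophil markers at 0.448 to 1.33, 1.46 to 2.29 and 0.266 to 0.887 CPM. Of the epithelial list, Cdh1 averaged 6.42, 34.6 and 115 CPM in monocytes. The other epithelial markers had lower means at 14 d than in controls, among them Scgb1a1 at 151, 43.1 and 50.6 CPM.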
